A study of Mus musculus with 14 samples.

Results

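The genes described here are 10 genes of fatty acid synthesis in the liver, given as a list of names: the transcription factor genes Srebf1 and Mlxipl, and Acly, Acss2, Acaca, Acacb, Fasn, Me1, Thrsp and Pnpla3. All 10 were found among the 25130 genes that had a count above 0 in at least 1 of 14 mouse liver libraries, and 9 of them passed the filter on low counts that left 13131 genes for testing. The libraries came from recipient mice fed a high-fat diet, which both groups share. The transplant group (n = 6) received brown fat pre-adipocytes of the stromal fraction that had been differentiated and placed on silk scaffolds, and the empty scaffold group (n = 8) received a scaffold without cells. Strain, sex, age and the time since surgery are not given in the labels. Nothing in the labels ties each sample to its own animal, so the spread behind the p-values may be partly technical.

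The liver makes fatty acids from acetyl-CoA when carbohydrate is plentiful. ATP citrate lyase (Acly) and acetyl-CoA synthetase 2 (Acss2) supply cytosolic acetyl-CoA, acetyl-CoA carboxylases 1 and 2 (Acaca and Acacb) turn it into malonyl-CoA, and fatty acid synthase (Fasn) builds palmitate from it with NADPH that malic enzyme 1 (Me1) helps to provide. Transcription of these enzymes is driven by SREBP-1, which the insulin-responsive gene Srebf1 encodes and which is released from the endoplasmic reticulum by cleavage, and by ChREBP, the carbohydrate-responsive factor encoded by Mlxipl. Thrsp (Spot 14) is a nuclear and cytosolic protein that promotes lipogenesis, and Pnpla3 is a lipid droplet protein whose gene is a known SREBP-1c target.

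Both regulators are transcribed from more than one start, and the starts give proteins of different activity. Srebf1 has an upstream start for SREBP-1a and a downstream start for SREBP-1c, the main form in liver. Mlxipl has a downstream start for the full-length ChREBP-alpha and an upstream one at the position of the exon that begins the shorter ChREBP-beta, itself a target of ChREBP. The 120 bases before each of these starts are shown, with those before the start of Fasn. Values given further on are divided among transcripts, some of which begin at or near these starts. The sequences are RefSeq promoters of GRCm38.p6, another build than the GRCm39 that the submitters' processing notes name, and read 5′ to 3′ on the strand of the gene. Capitals mark matches, on either strand, to 4 motifs: the E-box CACGTG, bound by USF proteins and, in spaced pairs of related sequence, by ChREBP with its partner, the sterol regulatory element written as TCACNCCAC, the NF-Y box CCAAT, and the Sp1 box GGGCGG.
Srebf1, before the SREBP-1a start (chr11:60220628-60220747, minus strand): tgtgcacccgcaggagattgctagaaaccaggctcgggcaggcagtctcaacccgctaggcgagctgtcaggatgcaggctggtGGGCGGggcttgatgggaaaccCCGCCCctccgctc
Srebf1, before the SREBP-1c start (chr11:60210472-60210591, minus strand): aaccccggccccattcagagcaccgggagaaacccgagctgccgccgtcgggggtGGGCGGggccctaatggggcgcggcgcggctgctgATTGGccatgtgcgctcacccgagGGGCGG
Mlxipl, before the upstream start (chr5:135089770-135089889, plus strand): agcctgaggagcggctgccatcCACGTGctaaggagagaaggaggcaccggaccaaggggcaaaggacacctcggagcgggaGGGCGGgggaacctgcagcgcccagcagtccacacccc
Mlxipl, before the main start (chr5:135106771-135106890, plus strand): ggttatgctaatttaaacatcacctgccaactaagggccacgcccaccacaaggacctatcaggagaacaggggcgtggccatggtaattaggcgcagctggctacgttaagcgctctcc
Fasn (chr11:120824548-120824667, minus strand): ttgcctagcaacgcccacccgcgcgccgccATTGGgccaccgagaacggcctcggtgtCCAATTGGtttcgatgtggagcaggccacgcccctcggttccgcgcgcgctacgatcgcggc

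RefSeq lists 14 starts for the 10 genes, and the motifs were searched in the 250 bases before each. The E-box was present before 1 of the 14 starts, the upstream start of Mlxipl, and before 6.02% of all 32851 promoters in the table. The sterol regulatory element was present before 1 of 14, the main start of Mlxipl and there outside the bases shown, and before 1.05% of all promoters. The NF-Y box stood before 9 of 14 starts and 33.85% of all promoters, and the Sp1 box before 7 of 14 and 32.74%. A match describes the letters of a window and is no evidence of binding, and a window without a match says nothing about the factor.

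Per unit length, Thrsp and Me1 were the most abundant of the 10 transcripts in these livers. On the deposited TPM scale, which divides by transcript length, the mean level over the 14 libraries was 122.2 for Thrsp and 71.9 for Me1. Srebf1 (34.4), Fasn (27.8), Acss2 (24.5) and Mlxipl (24.3) formed a middle range in mean TPM, and the SDs over libraries were larger than the steps between them. Acly followed at 15.6 TPM. The carboxylases were lower, at 4.71 TPM for Acaca and 3.22 TPM for Acacb. Pnpla3 had a mean of 0.113 TPM.

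In livers of transplant recipients the counts of both acetyl-CoA carboxylase genes, summed over their transcripts, fell relative to empty scaffold, and no member was called higher. Acaca was at 24.2 ± 6.26 CPM (SD, n = 6) against 40.5 ± 8.93 (n = 8) and Acacb at 18.5 ± 3.04 against 27.8 ± 6.95, where CPM is the estimated count scaled to library size. Of the 9 tested members, 2 were called lower and 0 higher at an adjusted p under 0.05 in edgeR's quasi-likelihood test, where 4.23% of all 13131 tested genes were called lower and 3.31% higher. The median log2 fold change of the 9 was -0.30, against -0.02 over all tested genes. In the plot of levels by library, the 2 groups overlap for each of the 10 genes.

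**Figure D1:**
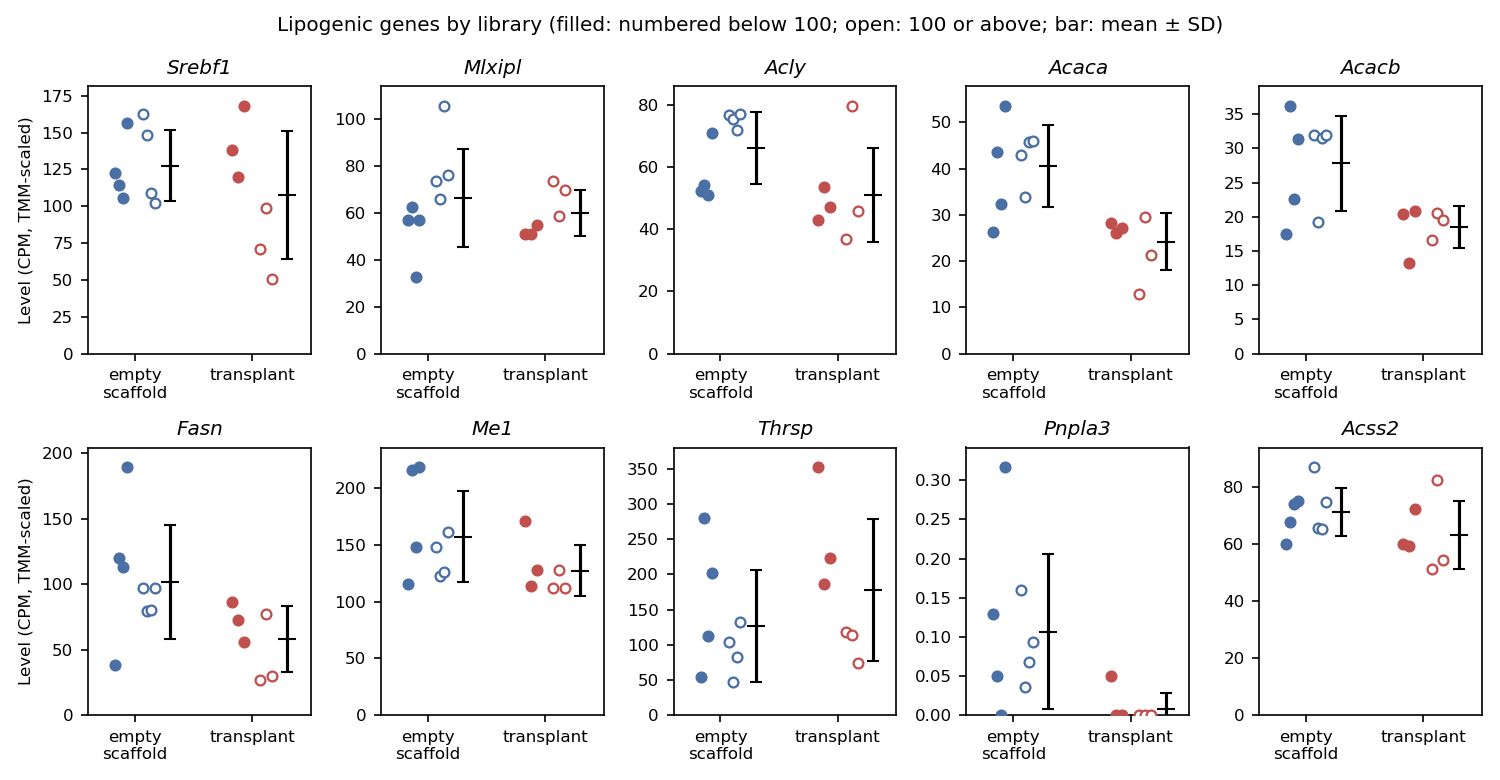
Level of each of the 10 genes in CPM (y axis, TMM-scaled) in each library of the empty scaffold (blue) and transplant (red) groups, with mean ± SD as bars. Filled points are samples whose label number is below 100 and open points those numbered 100 or above. Acaca and Acacb sit lower in the transplant group, Thrsp spreads widely in both groups, and the transplant libraries of Srebf1 split by number range.

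Acaca, the carboxylase whose malonyl-CoA feeds fatty acid synthesis, ranged in the transplant libraries from 12.8 to 29.6 CPM with a median of 26.7. In the empty scaffold libraries it ranged from 26.2 to 53.6 CPM with a median of 43.2. The highest transplant library reached only the lower part of the empty scaffold range, where empty scaffold replicate 5, at 26.2 CPM, was the lowest. The log2 fold change was -0.74 ± 0.18 (SE) with an adjusted p of 0.0298 by edgeR. The call held in 8 of 14 fits that each left out 1 library. It was lost without transplant replicates 1 (adjusted p = 0.0568), 3 (0.0553) or 5 (0.0586), or empty scaffold replicates 3 (0.0610), 4 (0.0596) or 8 (0.0567), with log2 fold changes over all 14 edgeR fits from -0.81 to -0.62. It was also lost with the length and GC trends of each library removed, where the log2 fold change was -0.43 ± 0.17 (edgeR adjusted p = 0.130).

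Acacb, the carboxylase at the mitochondrion whose malonyl-CoA restrains fatty acid import for oxidation, ranged from 13.2 to 20.8 CPM in the transplant libraries (median 20.0). In the empty scaffold libraries it ranged from 17.5 to 36.2 CPM (median 31.5). All but 3 of the empty scaffold libraries, replicates 2 (19.2 CPM), 5 (17.5 CPM) and 7 (22.7 CPM), were above 31 CPM, and no transplant library was. These levels are sums over transcripts. A transcript annotated as a retained intron, ENSMUST00000143276, held 67.6 ± 28.5% of the Acacb count in the transplant group and 50.2 ± 32.3% in the empty scaffold group. The log2 fold change of the gene sum was -0.59 ± 0.17 with an edgeR adjusted p of 0.0426. The call held in 5 of 14 fits with 1 library left out. It held without transplant replicate 4 (0.0499) or 6 (0.0497) and without empty scaffold replicate 2 (0.0359), 5 (0.0192) or 7 (0.0298), all edgeR adjusted p-values. Without each of the other libraries in turn the edgeR adjusted p lay between 0.0509 (empty scaffold replicate 6) and 0.103 (transplant replicate 1), and the log2 fold change stayed between -0.66 and -0.51 over all 14 fits. With the length and GC trends of each library removed it was -0.20 ± 0.16 (edgeR adjusted p = 0.483), and with an offset for the deposited effective lengths -0.56 ± 0.18 (adjusted p = 0.0875), so neither setting gave the call.

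Fasn had the most negative estimate of the tested members but did not pass the test. Its transplant libraries ranged from 26.6 to 86.4 CPM (median 64.4) and its empty scaffold libraries from 38.1 to 189 CPM (median 97.2). Replicate 5 of the empty scaffold group was far below the other 7 of its group, which started at 79.3 CPM. The log2 fold change was -0.81 ± 0.32 with an edgeR adjusted p of 0.108. Without that library it was -0.93 ± 0.28 with an adjusted p of 0.0420 by edgeR. This was the only 1 of 14 fits with 1 library left out in which Fasn was called. Without transplant replicate 1 it was -0.66 ± 0.31 (edgeR adjusted p = 0.223), and the log2 fold change ran from -0.96 to -0.62 over the 14 fits.

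The acetyl-CoA suppliers did not pass the test. Acly ranged from 36.9 to 79.7 CPM in the transplant libraries (median 46.5) and from 51.0 to 77.0 CPM in the empty scaffold libraries (median 71.4). Transplant replicate 2, at 79.7 CPM, was the highest of all 14 libraries, while 4 of the other 5 transplant libraries were below every empty scaffold library. The log2 fold change of Acly was -0.38 ± 0.16 (edgeR adjusted p = 0.126), and without transplant replicate 2 it was -0.55 ± 0.13 (adjusted p = 0.0374). This was the only 1 of 14 fits with 1 library left out in which Acly was called, and without transplant replicate 1 it was -0.30 ± 0.16 (edgeR adjusted p = 0.263). With the length and GC trends of each library removed Acly was at -0.12 ± 0.12 (edgeR adjusted p = 0.578). Acss2, which makes acetyl-CoA from acetate, was at 63.3 ± 11.9 CPM against 71.3 ± 8.31 (log2 fold change -0.17 ± 0.11, edgeR adjusted p = 0.318).

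Me1 and Thrsp, the most abundant members, did not pass the test either, and their estimates had opposite signs. Me1 was at 127.5 ± 22.7 CPM in the transplant libraries and 157.3 ± 40.2 in the empty scaffold libraries (log2 fold change -0.30 ± 0.16, edgeR adjusted p = 0.199). Thrsp ranged from 73.5 to 352 CPM in the transplant libraries (median 152) and from 46.7 to 281 CPM in the empty scaffold libraries (median 108). This spread within each group was the widest of the 9 tested members on the log scale of the fit, with an SE of 0.41 on a log2 fold change of 0.49 (edgeR adjusted p = 0.438). Without transplant replicate 4 the log2 fold change was 0.17 and without empty scaffold replicate 6 it was 0.76, with edgeR adjusted p-values of 0.804 and 0.177.

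Pnpla3 was at the limit of detection in both groups, with most of its few reads in the empty scaffold libraries. Its main transcript had 1 read in 1 of 6 transplant libraries (replicate 4) and none in the other 5. In the empty scaffold libraries 1 to 8 reads were assigned to it in 7 of 8, with 0 in replicate 7, for a total of 21 against 1. These counts are too low for the filter, so the gene was not tested with the others. Without the filter edgeR gave a log2 fold change of -3.22 ± 0.95 with an adjusted p of 0.0585, a value that depends on the prior count of the fit.

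The regulators themselves did not pass the test. Mlxipl was at 59.8 ± 9.69 CPM in the transplant libraries and 66.2 ± 20.8 in the empty scaffold libraries (log2 fold change -0.15 ± 0.18, edgeR adjusted p = 0.610). The empty scaffold libraries held both its lowest value, 32.5 CPM in replicate 7, and its highest, 105.6 CPM in replicate 3. Without replicate 7 the log2 fold change was -0.25 and without replicate 3 it was -0.02. Srebf1 ranged from 50.4 to 168 CPM in the transplant libraries (median 109) and from 102 to 163 CPM in the empty scaffold libraries (median 118). Its log2 fold change was -0.25 ± 0.21 with an edgeR adjusted p of 0.448. The lowest and the highest Srebf1 values of all libraries were both in the transplant group, in replicates 3 and 6. Without replicate 3 the log2 fold change was -0.10 and without replicate 6 it was -0.42.

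The sample labels carry numbers that fall into 2 ranges, below 100 and 100 or above, each with 3 transplant and 4 empty scaffold samples. Their meaning is not given, and the transplant numbers within a range form a block apart from the empty scaffold numbers, so the group and whatever follows the numbers cannot be told apart there. The Srebf1 values were separated by group in 1 range and overlapped in the other. Among samples numbered 100 or above, transplant replicates 1 to 3 had 71.1, 98.6 and 50.4 CPM, all below the empty scaffold replicates 1 to 4 at 163, 148, 109 and 102 CPM. Among samples numbered below 100, transplant replicates 4 to 6 had 138, 119.6 and 168 CPM, within and above the 106 to 156 CPM of the empty scaffold replicates 5 to 8.

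Fitted in samples numbered 100 or above alone, the Srebf1 log2 fold change was -0.83 ± 0.23 (edgeR adjusted p = 0.0276), and in those below 100 alone it was 0.19 ± 0.16 (adjusted p = 0.745). The difference between the ranges, tested as an interaction, was -1.02 ± 0.31 on the log2 scale with an edgeR adjusted p of 0.177, so the fit over all genes does not show that the ranges differ. No gene was called in that interaction fit, 0% of 13131, while 2275 genes had an unadjusted p under 0.05 and DESeq2 called 183. No other member had an interaction of comparable size relative to its error, with log2 values from -0.49 (Thrsp) to 0.09 (Me1) and edgeR adjusted p-values from 0.522 to 0.980. In samples numbered 100 or above alone, Srebf1, Acaca (-0.99 ± 0.23, adjusted p = 0.0186) and Acacb (-0.60 ± 0.18, adjusted p = 0.0353) were called lower by edgeR, where 11.5% of all genes were. For Srebf1, Acaca and Fasn the CPM of the groups did not overlap in this range, as was so for 17.9% of all 13131 tested genes in the same direction. Pnpla3, outside the tested genes, did not overlap there either. In samples numbered below 100 alone no member was called, with 0.0231% of all genes called in either direction, and Acaca (-0.52 ± 0.21) and Acacb (-0.57 ± 0.27) kept their sign with edgeR adjusted p-values of 0.492 and 0.560.

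The division by number range is itself in doubt for 2 libraries. By the shares of single transcripts of Srebf1, Acly, Acacb and Fasn, described further on, transplant replicate 1 and empty scaffold replicate 5 go with the libraries of the other range. A Me1 transcript, also described there, does not place transplant replicate 1 so. Whether the numbers of these 2 libraries or some step of their handling differ was not tested. In an alternative chosen after seeing this, samples numbered 100 or above without transplant replicate 1 gave a Srebf1 log2 fold change of -0.82 ± 0.33 that was no longer called (edgeR adjusted p = 0.144). Acaca stayed called there (-0.73 ± 0.17, adjusted p = 0.0222) and Acacb did not (-0.52 ± 0.22, adjusted p = 0.136). Below 100 without empty scaffold replicate 5, Srebf1 was at 0.18 ± 0.16 (edgeR adjusted p = 0.720), Acaca at -0.67 ± 0.15 (0.137) and Acacb at -0.74 ± 0.22 (0.248). Over all libraries but these 2, Acaca (-0.70 ± 0.13, edgeR adjusted p = 0.0280) and Acacb (-0.64 ± 0.16, 0.0469) remained the members called.

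**Figure D2:**
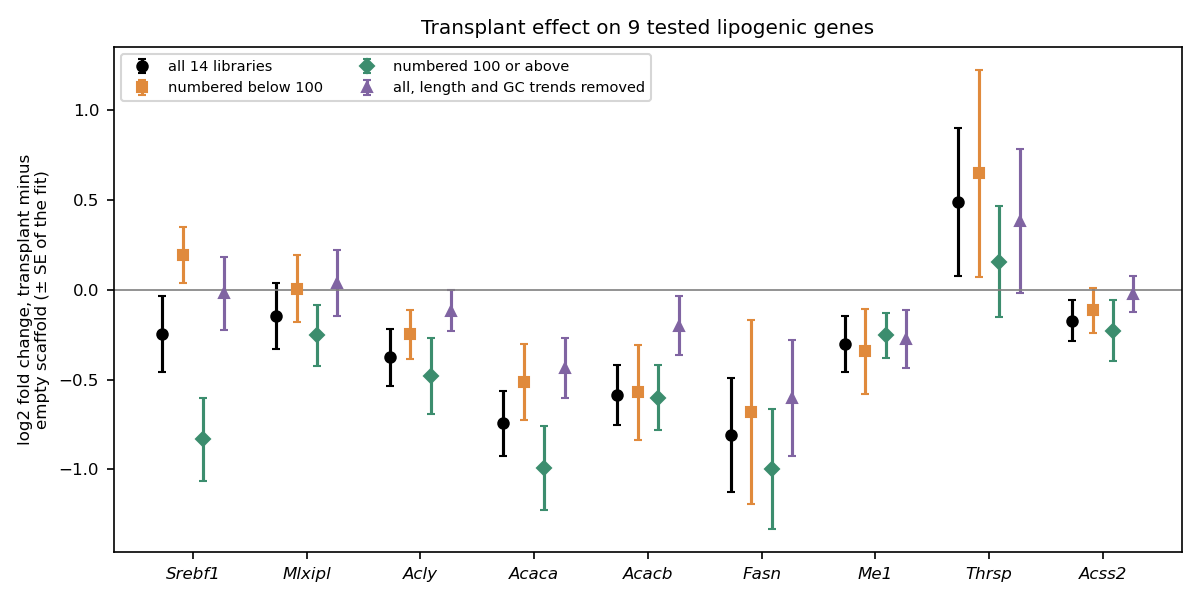
Log2 fold change of the 9 tested genes, transplant minus empty scaffold (y axis), with bars for ± the standard error of the edgeR fit. Colours show all 14 libraries, each number range alone, and all libraries after removal of length and GC trends. Srebf1 lies at -0.83 in samples numbered 100 or above and at 0.19 below 100, and the Acaca and Acacb values move towards 0 when the trends are removed.

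A property of whole libraries moved with several members. The slope of gene level on transcript length, in log2 CPM per doubling of length, ran from 0.18 to 0.23 in the empty scaffold libraries numbered 100 or above and from -0.27 to 0.02 in the transplant libraries of that range. Below 100 it ran from -0.09 to 0.01 and from -0.16 to -0.08. Lengths were averaged over the transcripts of a gene by their TPM, which makes Acaca (7606 bases) and Acacb (7272 bases) the longest of the list. Fasn entered at 2913 bases, since its short retained-intron transcript counts in that average, and its coding transcripts of 8333 and 10050 bases are longer. Over the 14 libraries, which share this slope as a common scale, the log2 level of Acly had a Pearson's r of 0.874 with the slope, Acaca 0.702, Acss2 0.557, Acacb 0.553 and Mlxipl 0.527. The r was 0.367 for Fasn, 0.252 for Srebf1, 0.071 for Me1 and -0.452 for Thrsp. The slope is fitted on the levels of all tested genes, members included. No share of all tested genes with such an r was computed, so these r are not shown to be particular to the members. Acss2 and Mlxipl entered at 2829 and 2621 bases. A slope on GC content, in log2 CPM per 10 points, also differed. It ran from -0.15 to -0.07 in transplant libraries numbered 100 or above, against 0.02 to 0.08 in empty scaffold libraries. Below 100 it ran from -0.03 to 0.06 and from -0.07 to 0.17. The lowest GC slopes, -0.155 and -0.150, were in transplant replicates 3 and 1, which had the lowest Srebf1 values. No r of the members with the GC slope was computed. With these length and GC trends removed from each library neither carboxylase was called, as given above, and the median log2 fold change over all genes was 0.04. Fasn was at -0.60 ± 0.32 (edgeR adjusted p = 0.272) and Srebf1 at -0.02 ± 0.20 (adjusted p = 0.963). Whether either slope reflects RNA quality or library preparation was not tested.

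Some non-parenchymal cell markers were lower in the transplant libraries. Of 8 markers each, 3 Kupffer cell, 3 stellate cell and 2 sinusoidal endothelial markers were called lower and 0 higher, against 4.23% and 3.31% of all tested genes, and the rest were not called, for example Timd4 (log2 fold change -0.27), Dcn (-0.11) and Clec4g (0.11). The summed Kupffer cell markers ran from 103 to 143 CPM against 127 to 317 CPM in the empty scaffold libraries. The stellate cell sums ran from 128 to 252 CPM against 160 to 364 CPM and the endothelial sums from 102 to 156 CPM against 127 to 203.8 CPM. Hepatocyte markers summed to 101700 to 154200 CPM against 81500 to 149700 CPM, with 1 of 7 tested called (Serpina1c, higher). In bulk tissue, fewer cells of a type and less RNA per cell cannot be told apart, and the part of these markers in the carboxylase values was not tested. Adipocyte markers, of which 4 of 9 were tested and 0 were called (edgeR adjusted p from 0.289 to 0.981), summed to 27.6 to 103 CPM against 32.8 to 128.9 CPM. Their defining members Adipoq, Lep, Plin1, Retn and Ucp1 were each under 1 CPM on average in both groups, with Adipoq at 0.0773 CPM against 0.0456.

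The Srebf1 reads were divided by the authors' quantification mainly among 3 transcripts. The SREBP-1a transcript (ENSMUST00000020846) begins at the upstream start, the SREBP-1c transcript (ENSMUST00000144942) carries the SREBP-1c first exon and ends short of the 3′ end of the gene, and the inner transcript (ENSMUST00000134660) begins downstream of both. Of the 31-base words of each, 148 of the SREBP-1a, 98 of the SREBP-1c and 25 of the inner transcript occur in no other listed transcript, so the division rests on short stretches. The SREBP-1c transcript was at 9.69 ± 6.88 CPM in the transplant libraries and 23.0 ± 16.1 in the empty scaffold libraries, and the SREBP-1a transcript at 36.2 ± 11.8 and 53.6 ± 16.1. The inner transcript was at 59.8 ± 35.9 and 47.5 ± 25.6 CPM. In mean CPM the SREBP-1c transcript was below the SREBP-1a transcript in both groups, although SREBP-1c is named above as the main form in liver. Reads of the 3′ part of the gene can go to the other transcripts but not to the SREBP-1c transcript. These CPM are therefore no measure of how much each start was used.

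In samples numbered 100 or above, the transcripts with both named starts were lower in transplant replicates 1 to 3 than in any of the 4 empty scaffold libraries. The SREBP-1c transcript was at 6.52, 21.7 and 12.2 CPM in transplant replicates 1 to 3 against 27.2 to 44.0 CPM. The SREBP-1a transcript was at 27.0, 40.4 and 18.7 CPM against 53.3 to 75.8 CPM. Of 20571 transcripts with a mean of at least 1 CPM, 10.1% were lower without overlap in this range. The inner transcript overlapped there, at 17.0 to 36.7 CPM against 16.3 to 42.7 CPM. Below 100, where gene-level Srebf1 was not lower, the inner transcript was at 78.7 to 107 CPM in the transplant libraries and 35.6 to 79.98 CPM in the empty scaffold libraries, and the SREBP-1c transcript was at 2.86 to 10.5 CPM against 2.45 to 21.1 CPM.

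**Figure D3:**
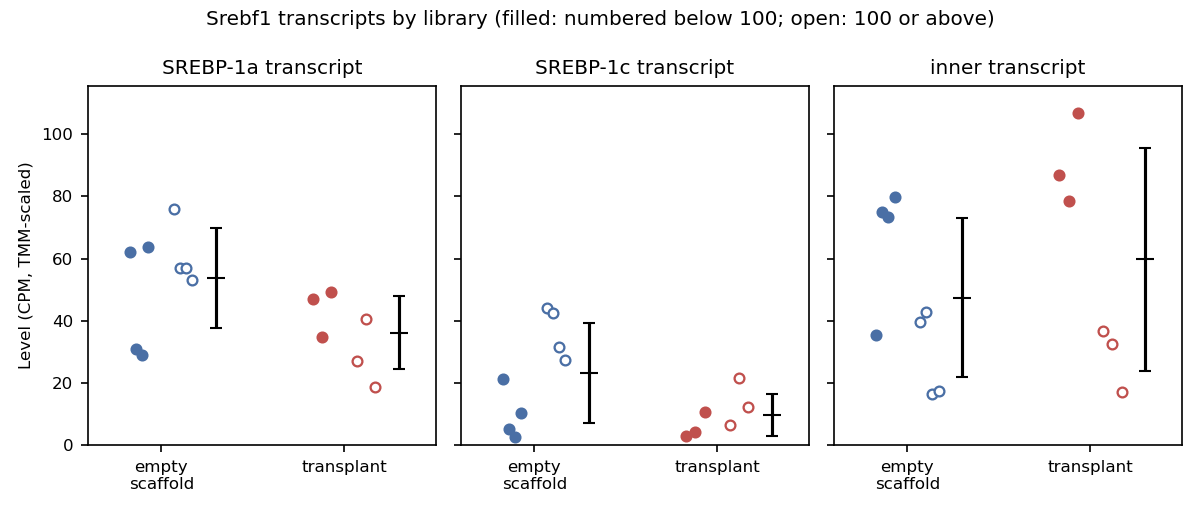
CPM of the 3 main Srebf1 transcripts (y axis, TMM-scaled estimated counts) in each library of the empty scaffold (blue) and transplant (red) groups, with mean ± SD as bars. Filled points are samples numbered below 100 and open points those numbered 100 or above. The SREBP-1c transcript is highest, at 27.2 to 44.0 CPM, in the empty scaffold samples numbered 100 or above.

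As shares of the gene's count, no member transcript passed the test between the groups. Of 18 member transcripts that held at least 10% of their gene in a group mean, 0 had an unadjusted p under 0.05 in a two-sided exact permutation test over all assignments of the libraries to groups of 6 and 8, against 5.59% of 15884 transcripts of all genes. No transcript passed adjustment over all 15884. The smallest p this permutation test can give is 0.000333, so a transcript could pass only if many others also lay near that value. The adjusted result is therefore no evidence that shares were alike between the groups. The SREBP-1c transcript held 11.2 ± 9.5% of Srebf1 in the transplant group and 17.7 ± 11.6% in the empty scaffold group (exact p = 0.274). The smallest exact p among members, 0.0649, belonged to Acaca, where ENSMUST00000020843 held 80.4 ± 11.8% against 91.5 ± 8.3% and ENSMUST00000103201 held 19.1 ± 12.1% against 7.4 ± 9.0%. As a share of the deposited TPM, ENSMUST00000020843 was 2.0 percentage points higher in the transplant group (exact p = 0.704). This is the opposite direction to its share of counts, so no direction is read from it. ENSMUST00000103201 was 11.1 points higher on TPM (exact p = 0.0686) and 11.6 points higher on counts. ENSMUST00000020843 has no 31-base word of its own, so its share depends on the quantification model.

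For several member transcripts the shares differed more between 2 sets of libraries than between groups. The sets were drawn from the share of the inner Srebf1 transcript, so its own separation was fixed by that choice. The other transcripts named as following it were singled out after their values were seen. How many of all tested transcripts divide the libraries in this way was not computed. The inner Srebf1 transcript held 51.2 to 69.3% of its gene in transplant replicates 1, 4, 5 and 6 and empty scaffold replicates 6, 7 and 8, and 14.9 to 33.7% in the other 7 libraries. In the same 7 libraries the Acly transcript ENSMUST00000165111 held 56.6 to 74.1% of Acly against 0 to 13.3% in the others. The Acacb transcript ENSMUST00000143276, annotated as a retained intron, held 75.8 to 92.7% of Acacb in them against 15.8 to 49.98%. The retained-intron transcript ENSMUST00000155276 held 13.02 to 17.9% of Fasn in them against 1.4 to 8.2%. This division follows the number range in 12 of 14 libraries. The exceptions are transplant replicate 1, numbered 100 or above, and empty scaffold replicate 5, numbered below 100. The Acly transcript just named and ENSMUST00000007131, which held most of Acly in the other libraries, have no 31-base word of their own, so their division depends on the quantification model. The coding Acacb transcript ENSMUST00000031583 has no such word either. The cause of the division was not tested, and values given by number range depend on where these 2 libraries belong.

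ENSMUST00000202431, a short Mlxipl transcript from the upstream start at the position of the ChREBP-beta exon, was near the limit of detection. It held 10.9 estimated reads over the 6 transplant libraries and 35.3 over the 8 empty scaffold libraries, with at most 5.2 and 14.2 in any 1 library. The transcript was singled out after its values were seen and got no test. The main Mlxipl transcript, ENSMUST00000005507, was at 34.9 ± 2.92 CPM in the transplant libraries and 38.5 ± 7.05 CPM in the empty scaffold libraries.

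Across the 14 libraries no enzyme followed Srebf1 or Mlxipl beyond what the test over all genes allows. Relations were computed as Pearson's r and Spearman's rho of log2(CPM + 0.5) with permutation p-values from 100000 resamples, adjusted over 13130 genes, and 16 of them involve members. Fasn had the largest r with Srebf1, 0.611 (permutation p = 0.0210, adjusted p = 0.375), with a rho of 0.288 (permutation p = 0.319). Acss2 followed with an r of 0.552 (permutation p = 0.0384, adjusted 0.401) and Acaca with 0.548 (permutation p = 0.0451, adjusted 0.405). Acly, Me1, Thrsp and Acacb had r of 0.376, 0.400, 0.275 and 0.237. No gene at all passed with Srebf1, 0% of 13130, with 1590 at an unadjusted permutation p under 0.05, and 8.0% of all genes had an r of at least 0.5.

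The pooled Srebf1 relations did not hold without the 2 libraries where Srebf1 was farthest from its median, transplant replicates 1 and 3, whose removal also narrows the range of Srebf1. Without them r with Srebf1 was 0.03 for Fasn, 0.01 for Acaca, 0.07 for Acss2 and -0.14 for Acly. Within samples numbered 100 or above, r was 0.844 for Fasn, 0.775 for Acly, 0.722 for Acss2 and 0.689 for Acaca over 7 libraries, which include both of those. Within samples numbered below 100 it was -0.01 for Fasn, 0.10 for Acly, 0.26 for Acss2 and 0.11 for Acaca, also over 7. With the mean of each group within each range taken out, r was 0.361 for Fasn, 0.525 for Acly, 0.619 for Acss2 and 0.242 for Acaca (permutation p from 0.103 to 0.597 within groups and ranges).

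No enzyme passed with Mlxipl, although many other genes did. Its r was 0.347 with Acacb, 0.324 with Acly and 0.130 with Acaca, and -0.223 with Fasn and -0.294 with Thrsp (permutation p from 0.228 to 0.649). Against these, 8.88% of all 13130 genes passed with a positive r and 1053 genes with a negative one. No gene passed without the 2 libraries farthest from the Mlxipl median, empty scaffold replicates 3 and 7. Within the 6 transplant libraries alone, r of Mlxipl with Fasn was -0.929 and with Acaca -0.824, and within the 8 empty scaffold libraries it was -0.169 and 0.456. The difference between the groups was not tested. Srebf1 and Mlxipl had an r of -0.19 with each other (permutation p = 0.493).

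**Figure D4:**
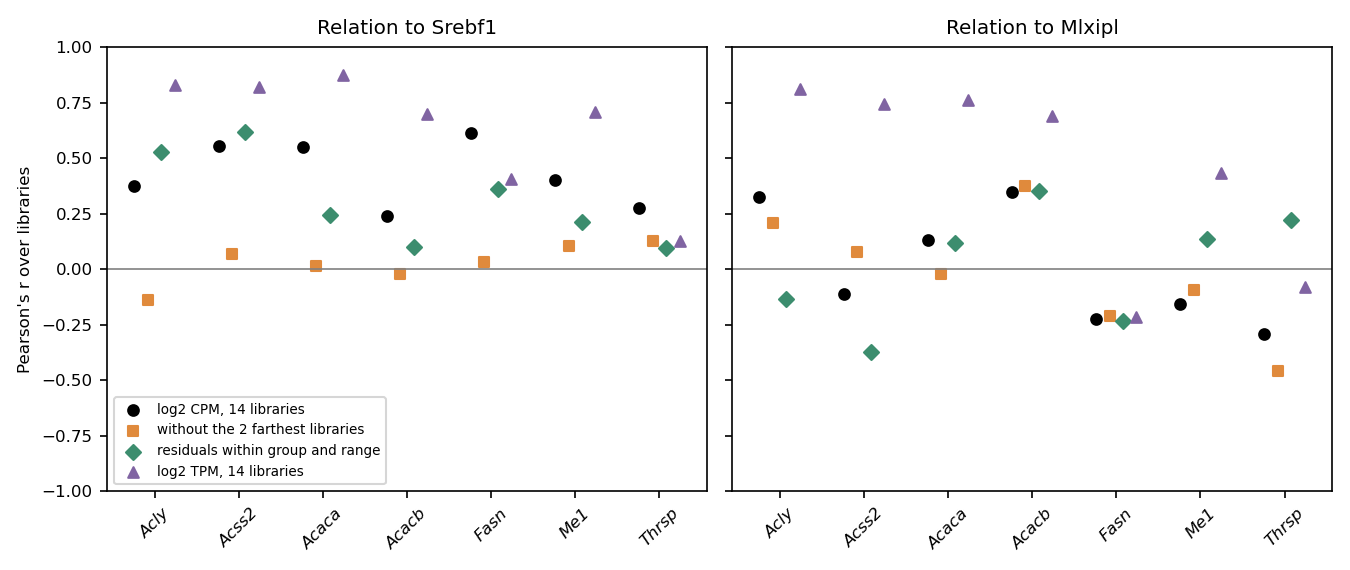
Pearson's r over libraries (y axis) of 7 enzyme or enzyme-related genes with Srebf1 (left) and Mlxipl (right), computed on log2 CPM, without the 2 libraries farthest from the regulator's median, on residuals within group and number range, and on log2 TPM. For Srebf1 the log2 CPM values run from 0.237 to 0.611 and lie near 0 without those 2 libraries.

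The scale of measurement changed these relations. On log2(TPM + 0.5), r with Srebf1 was 0.873 for Acaca, 0.830 for Acly and 0.822 for Acss2, and r with Mlxipl was 0.812 for Acly and 0.763 for Acaca. On that scale the median r over all genes was 0.592 with Srebf1 and 0.736 with Mlxipl, against 0.00 and 0.05 on the CPM scale. The median TPM of the tested genes itself ran from 3.18 to 7.12 between libraries, so TPM levels of most genes rose and fell together.

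Several pairs of enzymes had a higher r with each other than any enzyme had with either regulator, as a description over the same 14 libraries, which share depth and length slope. Pearson's r was 0.867 between Acaca and Fasn, 0.805 between Fasn and Me1, 0.801 between Acaca and Acacb, 0.761 between Acly and Acaca, and 0.738 between Acly and Acss2. With the group and range means taken out, these were 0.822, 0.757, 0.716, 0.765 and 0.725. Thrsp went with Me1 at an r of 0.621, and at 0.921 with the means taken out. Taking out these means does not take out the length slope. No share of all gene pairs was computed beside these r, and genes outside the list reached an r of 0.913 with Fasn.

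Among genes outside the list, the 5 whose log2 CPM was most like that of Srebf1 over the 14 libraries were Snx9 (r = 0.900), Mid1ip1 (0.891), Bcar1 (0.864), Eml2 (0.864) and Zfp777 (0.851). Mid1ip1 encodes a partner of Thrsp that promotes polymerization of acetyl-CoA carboxylase. For Mlxipl they were Dgkq (0.948), Khdc4 (0.948), Ttc14 (0.945), Fnbp4 (0.940) and AC149090.1 (0.935), and for Fasn Clcn6 (0.913), Fam193a (0.913), Snai2 (0.902), Sfpq (0.892) and Chaf1a (0.892). These were picked as the highest among all tested genes, so their r is a description.

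Of 15 other lipogenic enzymes and SREBP-1c targets, 3 fell and 0 rose in the edgeR test, against 4.23% lower and 3.31% higher over all tested genes. The median log2 fold change of the 15 was -0.23, against -0.02 over all tested genes. Scd1, the stearoyl-CoA desaturase that makes oleate and the most abundant of these transcripts in CPM, fell by 0.97 ± 0.24 on the log2 scale (2797 ± 865 against 5494 ± 1652 CPM, adjusted p = 0.0299). G6pdx, which makes NADPH in the pentose phosphate pathway, fell by 0.87 ± 0.20 (adjusted p = 0.0243), and the desaturase Scd2 fell by 0.74 ± 0.20 (adjusted p = 0.0402). Both were low, at 1.76 ± 0.427 against 3.24 ± 0.828 CPM for G6pdx and 2.03 ± 0.622 against 3.37 ± 0.835 CPM for Scd2. These 3 calls come from the main fit alone, and whether they hold under the alternative settings was not examined.

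The genes that release SREBP from the membrane, and those upstream of both factors, gave no calls. Of 10 genes of SREBP cleavage and trafficking, 0 were called, with a median log2 fold change of 0.03 and with Insig1 (0.24 ± 0.22) and Mbtps1 (-0.12 ± 0.11), among those of smallest p, at edgeR adjusted p-values of 0.472 and 0.493. Of 14 ChREBP partners and other targets 0 were called, and their median was -0.03. The nearest were Mlx, the dimer partner of ChREBP (0.28 ± 0.11, edgeR adjusted p = 0.0950), G6pc (0.42 ± 0.18, 0.136) and the glycolytic enzyme gene Pklr (-0.44 ± 0.24, 0.231). Of 10 upstream regulators 0 were called, with a median of -0.14. The nearest were the repressor Bhlhe40 (-0.36 ± 0.13, edgeR adjusted p = 0.0903), Nr1h3, which encodes the liver X receptor alpha that activates Srebf1 (0.27 ± 0.10, 0.0932), and the coactivator Ncoa3 (-0.41 ± 0.16, 0.102).

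Around malonyl-CoA and the carboxylases, 0 of 10 genes were called and the median log2 fold change was 0.02. Mlycd, which degrades malonyl-CoA, was at 138.2 ± 7.60 CPM against 115.5 ± 14.5 (edgeR adjusted p = 0.0817). Prkaa2, a catalytic subunit of AMP-activated kinase that inhibits the carboxylases, had a log2 fold change of -0.35 ± 0.17 (edgeR adjusted p = 0.176), and Cpt1a, the mitochondrial fatty acid import enzyme that malonyl-CoA inhibits, -0.16 ± 0.10 (0.295). Of 12 genes of acetyl-CoA and NADPH supply, 11 were tested and 1 was called. Mpc2, which encodes part of the carrier that brings pyruvate into mitochondria, rose by 0.59 ± 0.14 on the log2 scale (269.4 ± 55.3 against 179.4 ± 34.6 CPM, edgeR adjusted p = 0.0284). This call too comes from the main fit alone.

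Some members share sequence positions with other genes. On GRCm38, exons on the opposite strand overlap those of Acss2 (Acss2os, Ggt7 and Gss), Mlxipl (Gm43500), Me1 (A330041J22Rik) and Srebf1 (Rai1). The library kit keeps strand, but the strand setting of the quantification is not given in the sources used here. Acaca (chromosome 11, 84129672 to 84401651) and Acacb (chromosome 5, 114146535 to 114250761), the members that were called, have no such overlap. On the same strand, where strand cannot separate reads, Srebf1 overlaps Mir6922 and Pnpla3 overlaps Gm49513, so the few Pnpla3 reads carry that uncertainty.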

How the data were processed

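Liver RNA of 14 samples was sequenced. Per the labels' protocols, 200 ng of total RNA with a RIN above 7 was made into stranded mRNA libraries. The submitters' processing notes name fastp 0.20, kallisto 0.46.1, DESeq2 1.38 and GRCm39, with no role or order. The options, the strand setting and the annotation release are unknown here. The deposited tables hold, per the file headers, 1 line per transcript with an estimated count, a TPM, a length and an effective length. Samples were grouped by the condition label.

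The deposited estimated counts, 19482580 to 28910968 per library, were summed per gene through GENCODE M21 (GRCm38), which matched 120661 of 128803 transcripts holding 99.4% to 99.53% of each library's count. Sums were rounded, filtered with filterByExpr, scaled by TMM and tested with edgeR 4.0.16 (quasi-likelihood F test, robust, R 4.3.3), two-sided, with Benjamini-Hochberg adjustment over 13131 genes and a call at an adjusted p under 0.05. CPM uses TMM-scaled library sizes. TPM, as deposited, served for levels between genes and as an alternative, with a pseudocount of 0.5. Transcript shares were compared by exact permutation. Correlations, shares and promoter letters were computed in Python 3.11.15 with numpy 2.4.6. The fits were tested on simulated data. Alternatives were DESeq2 1.42.0, its size factors, no filter, the label number range as covariate or subset, offsets from effective lengths or from length and GC trends (natural splines, 4 degrees of freedom), and leaving out each library. A further alternative, chosen after seeing the data, left out 2 libraries whose shares of some transcripts go with the other number range. No library was left out of the main fit.

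The members, gene lists and alternatives were chosen with earlier results of these data known. Named are all 10 members, every called gene of a pathway list or else its 3 genes of smallest p, and the 5 genes most alike to Srebf1, Mlxipl and Fasn. Some results that this rule would name are not reported here. Transcripts and Elovl6 were singled out after their values were seen. Replicate numbers follow accession order and pair no samples.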

Additional observations from a re-analysis of the deposited data

Results flagged for a closer look

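In 20 groups of CPM values, 1 per member and group, the highest and lowest sample were compared with the nearest other one by Dixon's ratio, which chance passes in about 1 of 20 groups. Me1 in transplant replicate 4, at 171 CPM, stood apart from the other 5 transplant libraries, which reached 128 CPM at most. Pnpla3 in the same library, at 0.0496 CPM, stood apart because it was the only transplant library with a read, a single one. No cause was tested.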

How the results depend on the processing

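No paired analysis was possible because the labels give no shared replicate numbers. The number of genes called, 990, was 1956 with DESeq2, 2576 with the number range as a covariate, 3 in samples numbered below 100, 3487 in those numbered 100 or above, 315 with an effective length offset and 617 with length and GC trends removed. It ran from 138 (without transplant replicate 1) to 1910 (without empty scaffold replicate 7) with 1 library left out. Of the 2 members called, 0 remained below 100 and with the trends removed, with or without the covariate, and 1 was called with the effective length offset. Leaving out 1 library gave 0 to 3. Without both libraries of discordant transcript shares 420 genes were called. Without the 1 of them in each range, 2644 genes and 1 member were called at 100 or above and 7 genes and 0 members below 100, where Srebf1 was at 0.18 and Mlxipl at 0.043. The trends setting lowered the share of calls that were lower from 555 of 990 to 257 of 617. The log2 fold change of Srebf1 turned to 0.19 below 100, and that of Mlxipl to 0.0058 below 100, to 0.037 with the trends removed and to 0.044 with the covariate as well. All other members kept their sign under all alternatives run. Single genes were examined under the alternatives for the members only, not for the pathway lists or cell markers. The interaction called 183 genes with DESeq2 and 0 to 7 with 1 library left out. With the trends removed it turned to 0.025 for Acly, 0.46 for Acacb and 0.036 for Acss2. With 1 library left out it ran from -0.22 to 0.14 for Acacb, from -0.036 to 0.28 for Me1 and from -0.35 to 0.0084 for Acss2.

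Genes correlated with Srebf1 numbered 6501 on TPM. Those with Mlxipl, 2219, were 9517 on TPM, 0 on residuals and 0 without the 2 farthest libraries. On TPM, r turned to 0.545 between Srebf1 and Mlxipl, and with Mlxipl to 0.434 for Me1 and 0.744 for Acss2. On residuals, r with Mlxipl turned to -0.135 for Acly, 0.136 for Me1 and 0.220 for Thrsp. With the trends removed it turned to -0.079 for Acacb with Srebf1, and with Mlxipl to -0.005 for Acly and -0.391 for Acaca. Without the 2 farthest libraries it turned with Srebf1 to 0.001 for Mlxipl, -0.139 for Acly and -0.022 for Acacb, and with Mlxipl to -0.022 for Acaca and 0.078 for Acss2. The causes were not tested. Depth limits Pnpla3 and the upstream Mlxipl transcript.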

Other observations

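Elovl6, which lengthens palmitate, lay at the edge of the call at 17.4 ± 4.93 CPM against 28.3 ± 8.80 (log2 fold change -0.71 ± 0.21, edgeR adjusted p = 0.05004). Elovl6 was chosen after its values were seen. Mid1ip1, the gene next to Srebf1 in likeness that has a known part in lipogenesis, was at 23.9 ± 7.75 CPM against 25.3 ± 3.01 (log2 fold change -0.09 ± 0.17, edgeR adjusted p = 0.761).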
